A study of Danio rerio with 3 samples.

Results

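The cells described here are cells of zebrafish embryos that carry spi1b transcripts at a low level of the neutrophil gene npsn, set against cells from the same libraries in which no spi1b transcript was counted. They were chosen from single-cell counts. Of 93 cells in the table, 79 had 500 or more detected genes and 20000 or more counts. Of these, 63 had a cdh5 count of 0 and npsn under 500 CPM (counts scaled to a total of 1000000 in the cell). The gene cdh5 encodes the endothelial cadherin and npsn a metalloprotease of zebrafish neutrophils. Among the 63 cells, 15 had spi1b at 50 CPM or more and are called spi1b-primed (9 of library DP 1 and 6 of DP 2). A further 28 held 0 spi1b counts and are called spi1b-lacking (11 of DP 1 and 17 of DP 2). The other 20 cells, with spi1b above 0 and under 50 CPM, are called intermediate (19 of DP 1 and 1 of DP 2). They entered no test. The limit on npsn did not keep out every cell with neutrophil transcripts, since 3 primed cells held lyz, a neutrophil lysozyme gene, at 2975 CPM or more.

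Both libraries came from embryos with the transgenes spi2:Gal4;UAS:GFP and kdrl:mCherry, sampled 36 hours post fertilization, with no treatment named. In this line the spi2 promoter drives GFP through Gal4, and the promoter of kdrl, an endothelial VEGF receptor gene, drives mCherry. The deposited cell table lists the DP cells as positive for both reporters, while each sample label names hemogenic endothelial cells and hematopoietic cells together, so the sort gate of a single cell is known from the table alone. Neither the number of embryos nor any statement that the 2 libraries had separate clutches is given in the labels. Every p-value therefore rests on how far the difference between primed and lacking cells varied between the 2 libraries, a spread that may be technical. In the reported test the spread of each gene was also drawn towards values estimated over all genes. The median prior degrees of freedom were 2.68, against 1 residual degree of freedom. The SP sample, listed as positive for the spi2 reporter alone, was not analysed here.

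The gene spi1b encodes PU.1, an ETS-family transcription factor. In zebrafish, as in mammals, PU.1 drives progenitors towards neutrophil and macrophage fates, and it works together with C/EBP factors on granule, receptor and signalling genes. Low PU.1 levels are also found in uncommitted blood progenitors, and such expression ahead of granule genes is called myeloid priming.

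The spi1b level chose the members and is therefore a description. Primed cells of DP 1 had spi1b at 1687, 395, 188, 121, 102, 88.2, 61.9, 57.8 and 56.5 CPM. Primed cells of DP 2 had 968, 610, 434, 144, 82.9 and 58.5 CPM. The levels fall off steeply within each library, and the cell with the highest spi1b CPM held 65.1% of the spi1b counts of the primed cells in DP 1 and 28.0% in DP 2. Just under the limit lay intermediate cells of DP 1 with 45.8 and 41.1 CPM and the single intermediate cell of DP 2 with 16.6 CPM. The 6 cells set aside for high npsn (5 of DP 1 and 1 of DP 2) had spi1b between 1166 and 2345 CPM in DP 1 and at 1064 CPM in DP 2, and their lowest npsn was 2666 CPM. Among the 15 primed cells npsn reached at most 50.2 CPM in DP 1 and 274 CPM in DP 2, so the npsn limit fell in a wide gap.

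Depth differed between the sides. Primed cells summed to 3262030 counts in DP 1 and 639229 in DP 2, against 810653 and 1457722 for lacking cells. The median primed cell had 259552 counts in DP 1 and 119079 in DP 2, against 59332 and 50367 for the median lacking cell. A count of 0 in the median lacking cell still allows up to 50.6 CPM of spi1b in DP 1 and 59.6 CPM in DP 2, which is about the limit for a primed cell, so lacking means not detected at this depth. Mitochondrially encoded transcripts, which mark RNA quality, made up a median of 49368 CPM in primed cells of DP 1 against 127198 CPM in lacking cells of DP 1, and 44215 against 48901 CPM in DP 2. The part of depth and RNA quality in the differences below was not tested. Values restricted to cells of 50000 counts or more (15 primed cells and 15 lacking cells) are given beside several groups of genes.

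**Figure D1:**
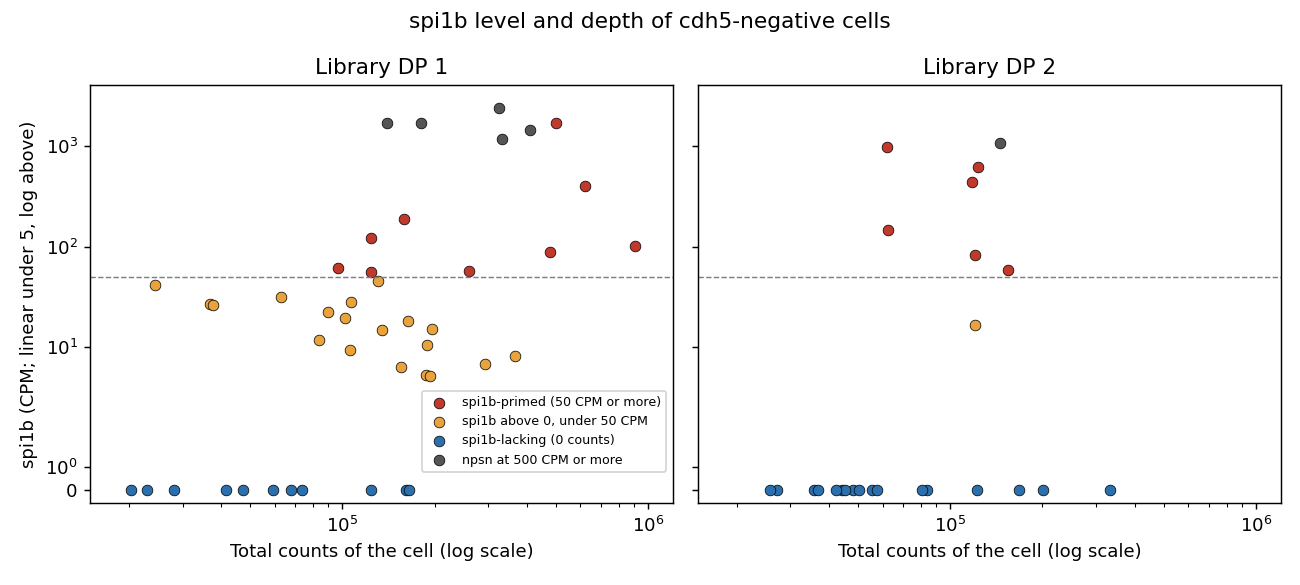
spi1b level (CPM, vertical axis, linear under 5 and log above) against the total counts of the cell (log scale) for the cdh5-negative cells of DP 1 and DP 2, with each point 1 cell and the dashed line at 50 CPM. Primed cells (red) lie between 56.5 and 1687 CPM in DP 1 and between 58.5 and 968 CPM in DP 2, and lacking cells (blue) lie at 0 and include the shallowest cells of each library.

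Counts were summed per library and side, and the 4 sums were tested over 5748 genes with the library as a block. By edgeR's quasi-likelihood test 0 genes passed a Benjamini-Hochberg adjusted p of 0.05, in either direction (0% higher and 0% lower), and the lowest adjusted p was 0.517. At an unadjusted p under 0.05 there were 213 genes higher in primed cells (3.71% of those tested) and 331 lower (5.76%), 544 in all (9.46%). The same sums gave 31 genes called higher (0.539%) and 28 called lower (0.487%) with DESeq2, and 33 (0.574%) and 25 (0.435%) with edgeR's legacy quasi-likelihood method, in all 1.03% and 1.01% of the genes. These tools called 28 higher genes in common, which is 90.3% of the DESeq2 genes and 84.8% of the legacy genes, and 21 lower genes in common, 75.0% and 84.0%. No single gene difference below passed the reported test, which had 1 residual degree of freedom, and each log2 difference is given as a value with its standard error. A gene could also enter the test through 1 side alone, which fixes its sign. In this way 242 of the tested genes reached the low-count filter in both primed sums and in neither lacking sum, and 251 in both lacking sums and in neither primed sum. Of all tested genes 53.9% had 1 direction in both libraries, and the median log2 difference was -0.03.

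Myeloid transcription factors came first by role. The gene cebpa encodes C/EBPα, a partner of PU.1 that granulocyte development requires. The primed sums stood at 978 (DP 1) and 307 CPM (DP 2), against 196 and 119 CPM for the lacking sums, a log2 difference of 1.87 ± 0.43 (SE, n = 2 libraries a side), and it was among the genes called by both DESeq2 and the legacy method. Single primed cells ranged from 242 to 1526 CPM in DP 1 and from 78.0 to 1004 CPM in DP 2. The primed sum of DP 2 rests largely on the cell with 1004 CPM, since the next primed cell had 285 CPM. That cell had spi1b at 434 CPM and was not the highest in spi1b. Single lacking cells ranged from 0 to 836 CPM and from 0 to 990 CPM, so the cells overlapped, and cebpa transcripts were present in 21 of 28 lacking cells against 15 of 15 primed cells. The level in primed cells of DP 1 was like that in npsn-high cells, at 1006 CPM, while intermediate cells of DP 1 stood at 183 CPM, near the lacking cells. Single cells set aside for cdh5 counts ranged from 260 to 1191 CPM of cebpa in DP 1 and from 17.2 to 338 CPM in DP 2. The DP 1 cells with 1191 and 260 CPM had spi1b at 7.44 and 3.42 CPM, and those of DP 2 had 0 spi1b counts. A high cebpa level was therefore not particular to cells with high spi1b.

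The zebrafish C/EBP gene cebp1, which is expressed in myeloid cells, was outside the fixed lists and was picked after its values were seen. It had 187 and 56.3 CPM in primed cells, against 2.47 and 5.49 CPM in lacking cells, and all 8 lacking counts of DP 2 came from 1 cell. After thinning each cell to 20000 counts it was left in 8 of 15 primed cells and 1 of 28 lacking cells. Intermediate cells of DP 1 had 60.6 CPM, between the sides. It entered the test through the primed side alone, which fixed its sign, and was called by both of the other tools.

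The stress-responsive C/EBP gene cebpb had 2968 and 3076 CPM in primed cells, against 3766 and 4497 CPM in lacking cells, a log2 difference of -0.45 ± 0.21, and 0.05 with thinned cells. The second PU.1 gene, spi1a, had 34 and 2 counts in primed cells against 0 and 0 in lacking cells and was too low to be tested. That is 10.4 and 3.13 CPM in primed cells, where 0 counts in the lacking sums still allow up to 3.70 and 2.06 CPM. The macrophage regulator gene irf8 had 0 counts on both sides in both libraries. Of 15 listed myeloid transcription factor genes 6 could be tested, with a median log2 of -0.34 that was 0.0048 with thinned cells, and cebpa was the member with an unadjusted p under 0.05.

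Among the tested receptors of myeloid growth factors il6r alone had an unadjusted p under 0.05, while another member had the largest absolute log2 difference, at -3.49. The interleukin-6 receptor gene il6r had 577 and 216 CPM in primed cells, against 72.8 and 37.0 CPM in lacking cells (log2 2.79 ± 0.41). Its transcripts were found in 15 of 15 primed cells and 16 of 28 lacking cells, and in 14 and 13 of them after thinning. The highest DP 1 cell gave 46.5% of the primed counts there, and without the cell highest in spi1b of each library the log2 difference was 2.40. Intermediate cells of DP 1 stood between the sides at 197 CPM.

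The macrophage colony-stimulating factor receptor gene csf1rb had 141 and 4.69 CPM in primed cells, against 117 and 3.43 CPM in lacking cells (log2 0.32 ± 0.46), so its level followed the library more than the side. Counts of csf1ra were 0 throughout. The neutrophil growth factor receptor gene csf3r had 0 counts in primed cells, against 0 and 7 in lacking cells. Of 11 receptor genes listed 4 were tested, with a median of 0.43 that was -0.0042 without the deepest cell of each side, and il6r was the member under an unadjusted p of 0.05. The 4 log2 differences ran from -3.49 to 2.79, with 3 positive and 1 negative, and each had 1 direction in both libraries.

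**Figure D2:**
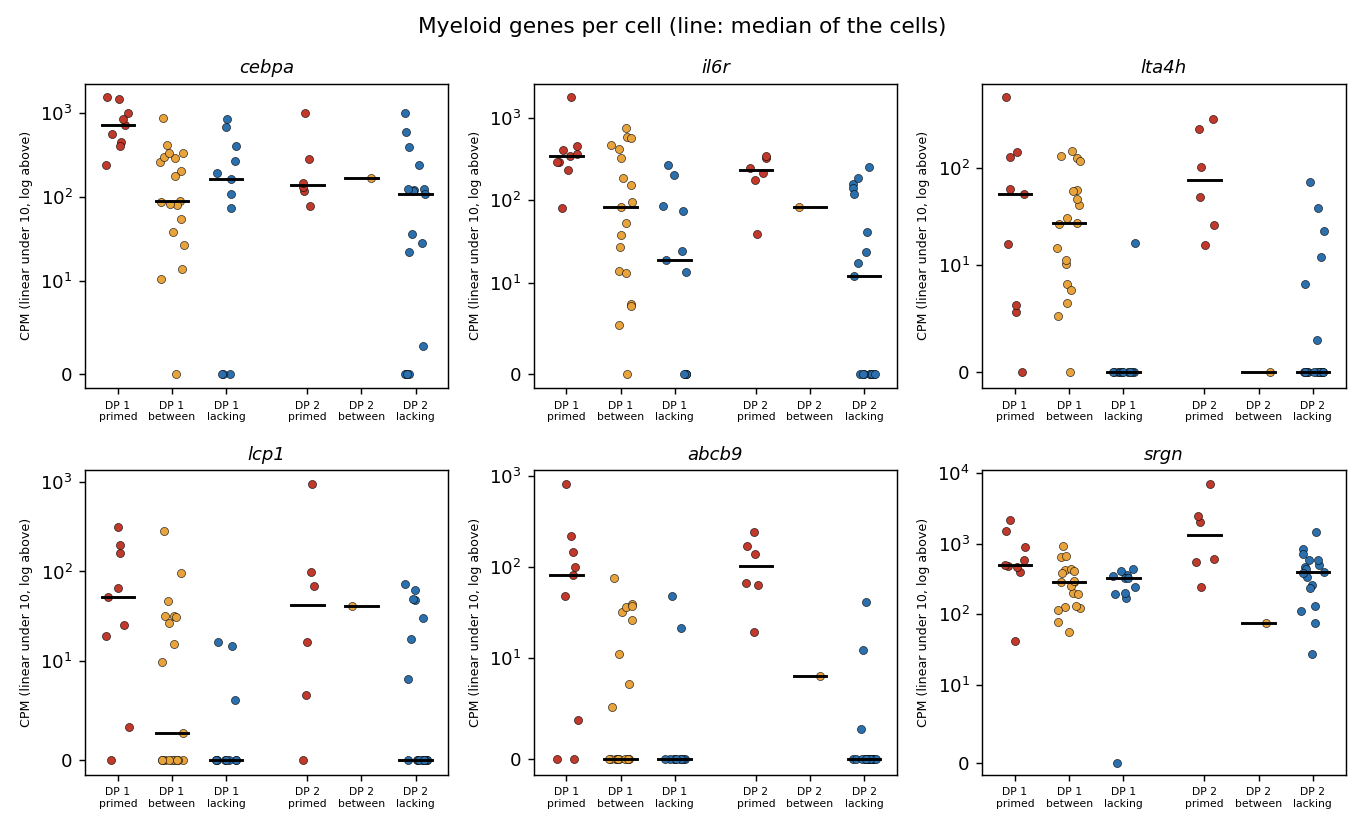
CPM of cebpa, il6r, lta4h, lcp1, abcb9 and srgn in single primed, intermediate (between) and lacking cells of DP 1 and DP 2 (linear under 10 and log above), with the horizontal line at the median of the cells. The highest cell of each panel is a primed cell in both libraries, and the sides overlap, with cebpa reaching 1526 and 1004 CPM in primed cells of DP 1 and DP 2 and 836 and 990 CPM in lacking cells.

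The granule and neutrophil genes were present in part. Of 16 listed neutrophil genes 9 were tested, with a median log2 of 1.64, and srgn, nccrp1, abcb9 and alox5a had an unadjusted p under 0.05 in the higher direction. Of the 9, 7 had a positive log2 difference and 2 a negative one, the lowest at -0.73, and 3 had opposite signs in DP 1 and DP 2. The genes abcb9 and alox5a entered the test through the primed side alone. The proteoglycan gene srgn, whose product packs granule contents, had 847 and 1801 CPM in primed cells, against 333 and 471 CPM in lacking cells (log2 1.64 ± 0.30). The peptide transporter gene abcb9 had 161 and 105 CPM, against 8.64 and 2.74 CPM in lacking cells (log2 4.65 ± 0.64), and after thinning it was left in 11 of 15 primed cells and 3 of 28 lacking cells. In DP 1 a single primed cell had abcb9 at 811 CPM and the next had 216.5 CPM. Without the cell highest in spi1b of each library the abcb9 log2 difference was 3.72. The gene nccrp1, which encodes a receptor protein named for non-specific cytotoxic cells, had 217 and 706 CPM, against 49.3 and 72.0 CPM in lacking cells (log2 2.81 ± 0.44). Its primed sums rest largely on 1 cell of DP 1 at 1056 CPM and on DP 2 cells at 2550 and 1691 CPM. The other primed cells ranged from 8.09 to 158 CPM in DP 1 and from 64.2 to 247 CPM in DP 2. Lacking cells ranged from 0 to 142 CPM and from 0 to 476 CPM. The leukotriene enzyme gene alox5a had 35.6 and 21.9 CPM, against 4.93 and 4.12 CPM in lacking cells.

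High levels of lyz and mpx separated a few cells from the rest. The lysozyme gene lyz had 569 and 4646 CPM in primed cells, against 181 and 62.4 CPM in lacking cells (log2 3.90 ± 1.36), and these sums rest on 3 cells. They held 2975 CPM in the primed cell of DP 1 highest in spi1b, and 23179 and 11515 CPM in the DP 2 cells with the highest and next highest spi1b. The other primed cells ranged from 88.2 to 268 CPM in DP 1 and from 34 to 618 CPM in DP 2, and lacking cells from 68.3 to 818 CPM and from 0 to 250 CPM. Transcripts of lyz were also found in 10 of 10 cdh5-positive cells, 1 of which had lyz at 5615 CPM, so the presence of a lyz count does not set a cell apart here.

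The peroxidase gene mpx had 20 and 18 counts in primed cells, against 2 and 5 in lacking cells. The DP 2 cell with 968 CPM of spi1b had mpx at 194 CPM and npsn at 274 CPM, and no other primed cell exceeded 26.0 CPM of mpx. In the npsn-high cells of DP 1 and DP 2 lyz summed to 22373 and 27219 CPM and mpx to 796 and 643 CPM. Single npsn-high cells reached down to 14473 CPM of lyz and 171 CPM of mpx, so the DP 2 primed cell with 23179 CPM of lyz lay within their range for both genes. The summed level of the 16 neutrophil genes ran from 765 to 7496 CPM in single primed cells of DP 1 and from 642 to 34930 CPM in those of DP 2, against 480 to 2038 CPM and 185 to 3275 CPM in lacking cells, and 21738 to 46342 CPM in npsn-high cells of DP 1. The npsn-high cell of DP 2 had 46394 CPM, and the highest primed cell of DP 2 lay within the range of the npsn-high cells of DP 1 for this sum too. The list median was 1.21 over 8 genes without the cell highest in spi1b of each library and 1.51 in cells of 50000 counts or more. The first of these settings kept the DP 2 primed cell with 11515 CPM of lyz, and the lyz log2 difference there was 2.50.

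The NADPH oxidase makes reactive oxygen in phagocytes. Its membrane subunit gene cyba had 25.1 and 51.6 CPM in primed cells, against 12.3 and 13.0 CPM in lacking cells (log2 1.57 ± 0.72, and 0.47 without the cells highest in spi1b). The activator gene ncf1 had 81.2 and 142 CPM, against 48.1 and 42.5 CPM in lacking cells. The catalytic subunit gene cybb, without which the complex makes no superoxide, had 0 and 3 counts in primed cells, against 0 and 0 in lacking cells. Of 5 listed genes 4 were tested, with a median of 1.42, and of 1.22 in cells of 50000 counts or more.

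Macrophage genes were nearly absent. Of 23 listed, 10 had a count in the analysed sides and 1 could be tested, the lysosomal protease gene lgmn, with 10 and 1 counts in primed cells against 24 and 38 in lacking cells. Since lgmn entered the test through the lacking side alone, its sign was fixed by entry. The defining gene mpeg1.1 was at 0 in every primed and lacking cell, as was csf1ra. The summed macrophage list reached at most 66.1 and 48.4 CPM in primed cells, against 360 and 94.7 CPM in lacking cells.

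Pan-leukocyte genes gave a mixed picture. The plastin gene lcp1, an actin bundler of leukocytes, had 84.6 and 127 CPM in primed cells, against 4.93 and 18.5 CPM in lacking cells (log2 3.1 ± 0.64). It was left in 10 of 15 primed cells and 2 of 28 lacking cells after thinning. In DP 2 the primed cell highest in spi1b gave 72.8% of the counts, and without the cells highest in spi1b the log2 difference was 1.75. The Wiskott-Aldrich gene wasb had 29.1 and 57.9 CPM, against 4.93 and 6.86 CPM in lacking cells.

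The leukocyte phosphatase gene ptprc (CD45) had 26.7 and 37.6 CPM, against 11.1 and 3.43 CPM in lacking cells (log2 2.23 ± 0.94, and 0.47 without the cells highest in spi1b). The Fc receptor chain gene fcer1gl had 84 and 25 counts in primed cells, against 0 and 21 in lacking cells, and 80 of the DP 1 counts came from the cell with 1687 CPM of spi1b. The coronin gene coro1a had 26.1 and 43.8 CPM, against 8.64 and 15.1 CPM in lacking cells. The lysosomal membrane gene laptm5 had 102 and 144 CPM, against 109 and 77.5 CPM in lacking cells, with a log2 difference of 0.38 that was -0.02 without the cells highest in spi1b. Of 24 listed genes 15 were tested, with a median of 0.93, and lcp1 and wasb, the second of which entered through the primed side alone, were under an unadjusted p of 0.05. Of the 15, 11 had a positive log2 difference and 4 a negative one, the lowest at -1.15, and 6 had opposite signs in DP 1 and DP 2. The median was 0.85 in cells of 50000 counts or more, and 0.36 over 8 genes with thinned cells.

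Of 15 tested actin remodelling genes 12 had a positive log2 difference and 3 a negative one, the median was 0.67, and 4 were under an unadjusted p of 0.05, namely pfn1, cotl1, arpc3 and cdc42l. The profilin gene pfn1, which feeds actin monomers to growing filaments, had 6888 and 3783 CPM in primed cells, against 2494 and 2035 CPM in lacking cells (log2 1.18 ± 0.27). Single primed cells ranged from 3024 to 11277 CPM in DP 1, against 131 to 3787 CPM in lacking cells. The Arp2/3 subunit gene arpc3 had 279 and 299 CPM, against 96.2 and 123 CPM in lacking cells. The median of this list was 0.20 without the cells highest in spi1b and 0.54 in cells of 50000 counts or more.

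The genes singled out by unadjusted p, 12 in each direction, all had an adjusted p of 0.517 in the reported test, 4 of the higher and 7 of the lower ones entered the test through 1 side alone, and the rule that chose them asked for 1 direction in DP 1 and DP 2. Those higher in primed cells included abcb9 and il6r, given above. The leukotriene hydrolase gene lta4h, whose enzyme makes the neutrophil attractant leukotriene B4, had 132 and 116 CPM, against 1.23 and 6.17 CPM in lacking cells, with 1 lacking count in DP 1. After thinning it was left in 9 of 15 primed cells and 3 of 28 lacking cells. Like abcb9, lta4h entered the test through the primed side alone, which fixed its sign. The cytokine gene il1b had 164 and 243 CPM, against 3.70 and 15.1 CPM in lacking cells (log2 4.32 ± 0.60), and 1 cell gave 81.5% of the primed counts in DP 1 and 1 cell 74.2% in DP 2.

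Oxysterol and sterol enzymes were among them too. The cholesterol hydroxylase-like gene ch25hl2 had 124 and 411 CPM in primed cells, against 9.87 and 2.06 CPM in lacking cells (log2 5.76 ± 1.03), and hsd3b7, which encodes an enzyme of bile acid synthesis, had 53.6 and 119 CPM, against 3.70 and 11.7 CPM. The mitochondrial transporter gene abcb10 had 106 and 62.6 CPM, against 9.87 and 2.06 CPM. The hormone-binding protein gene crhbp had 16.6 and 645 CPM, against 1.23 and 52.1 CPM in lacking cells, so that its level differed far more between the libraries than between the sides. Also among them were glipr1a at a log2 difference of 3.46 and gpn2 at 4.4.

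Another gene higher in primed cells was si:ch1073-429i10.1, which has a clone-based symbol. It had 949 and 738 CPM in primed cells, against 46.9 and 27.4 CPM in lacking cells (log2 4.54 ± 0.43). The cell highest in spi1b held 97.4% of the primed counts in DP 1 and 89.0% in DP 2. Without those cells the primed sums had 29.0 and 90.1 CPM and the log2 difference was 0.49. In npsn-high cells the gene stood at 8254 and 12127 CPM.

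**Figure D3:**
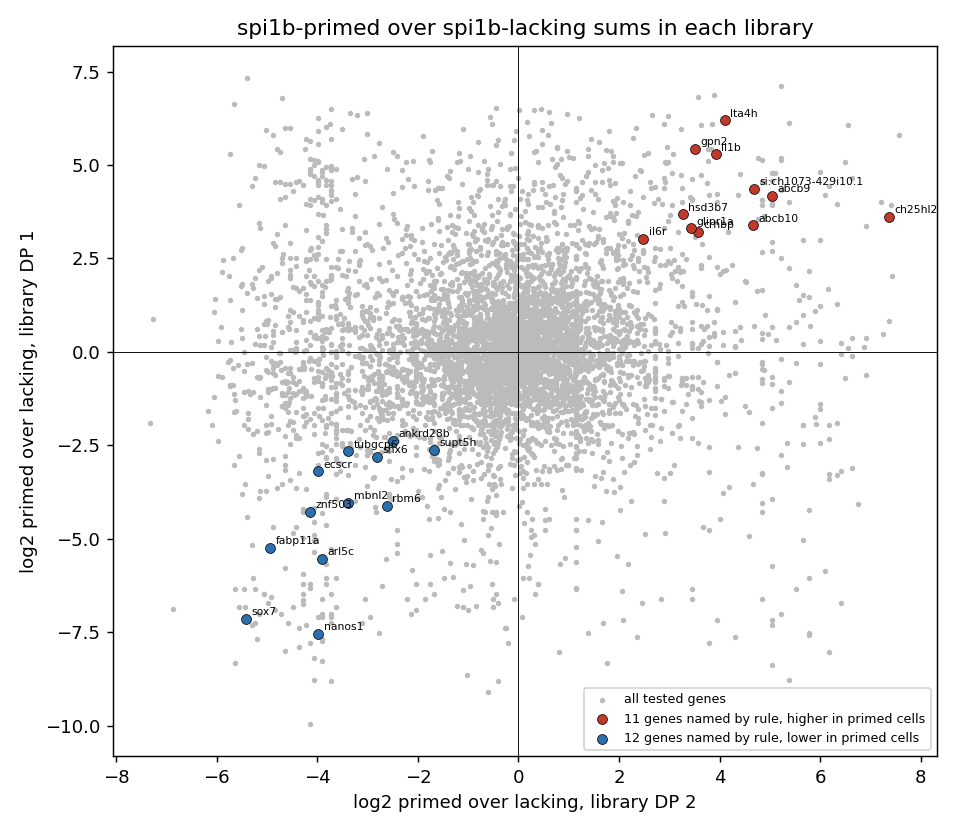
Log2 difference of the primed over the lacking sum in DP 1 (vertical) against that in DP 2 (horizontal) for the 5748 tested genes, with named genes in red (11 higher in primed cells) and blue (12 lower). The grey cloud has the same sign in both libraries for 53.9% of genes, and the named genes lie in the 2 same-sign corners because the rule asked for that.

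Endothelial genes were next, beyond cdh5, which was 0 in every member by the rule. All 11 tested endothelial genes of 27 listed had a negative log2 difference, the median was -2.42, and 5 had an unadjusted p under 0.05 in the lower direction, namely pecam1, tek, sox7, efnb2a and ecscr. Of the 11, pecam1, sox7, efnb2a and aqp1a.1 entered the test through the lacking side alone, so their sign was fixed by entry, and in 2 of the 11 DP 1 and DP 2 had opposite signs. Endothelial genes and cdh5 are markers of the same cell type, and the lacking cells had to have no cdh5 count at lower depth. The transcription factor gene sox7 had 1 and 2 counts in primed cells, against 54 and 234 in lacking cells, or 0.307 and 3.13 CPM against 66.6 and 161 CPM. The adhesion molecule gene pecam1 had 1 and 0 counts, against 45 and 128 in lacking cells, where the sums stood at 55.5 and 87.8 CPM. The arterial ephrin gene efnb2a had 0 and 0 counts, against 17 and 14 in lacking cells.

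These endothelial counts came from a subset of the lacking cells. Transcripts of sox7 were found in 1 of 9 and 1 of 6 primed cells of DP 1 and DP 2, against 3 of 11 and 7 of 17 lacking cells, and 1 lacking cell of DP 1 gave 85.2% of the counts there. After thinning, sox7 was left in 0 of 15 primed and 8 of 28 lacking cells and pecam1 in 0 and 10. Without thinning, 1 or more of pecam1, tek, sox7, efnb2a and ecscr was counted in 5 of 9 primed cells of DP 1 and 2 of 6 of DP 2. Among lacking cells this held for 7 of 11 and 14 of 17. The endothelial surface gene ecscr had 15.9 and 3.13 CPM in primed cells, against 152 and 59.7 CPM in lacking cells (log2 -3.33 ± 0.54). The summed endothelial list ran from 105 to 439 CPM and from 40.7 to 199 CPM in single primed cells, against 35.6 to 3574 CPM and 99.3 to 4257 CPM in lacking cells. The median cell had 174 and 82.2 CPM on the primed side, against 500 and 414 CPM on the lacking side. In cells of 50000 counts or more the list median was -2.48.

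The sorted reporter genes did not separate the sides in this way. Transcripts of kdrl came to 7 and 6 counts in primed cells, against 4 and 29 in lacking cells (log2 -1.13 ± 0.92). These counts come from sums of unlike depth, and scaled to depth kdrl was lower in primed cells in both libraries (log2 -1.23 in DP 1 and -1.05 in DP 2). Levels of spi2, an ETS gene, were 172 and 293 CPM in primed cells, against 199 and 424 CPM in lacking cells (log2 -0.38 ± 0.34). Single primed cells spanned 29.0 to 371 CPM of spi2 in DP 1 and 0 to 931 CPM in DP 2, with 2 of 6 DP 2 primed cells at 0, against 0 to 735 CPM and 27.9 to 1309 CPM in lacking cells. In npsn-high cells spi2 was at 5.04 CPM in DP 1 and had 0 counts in DP 2.

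**Figure D4:**
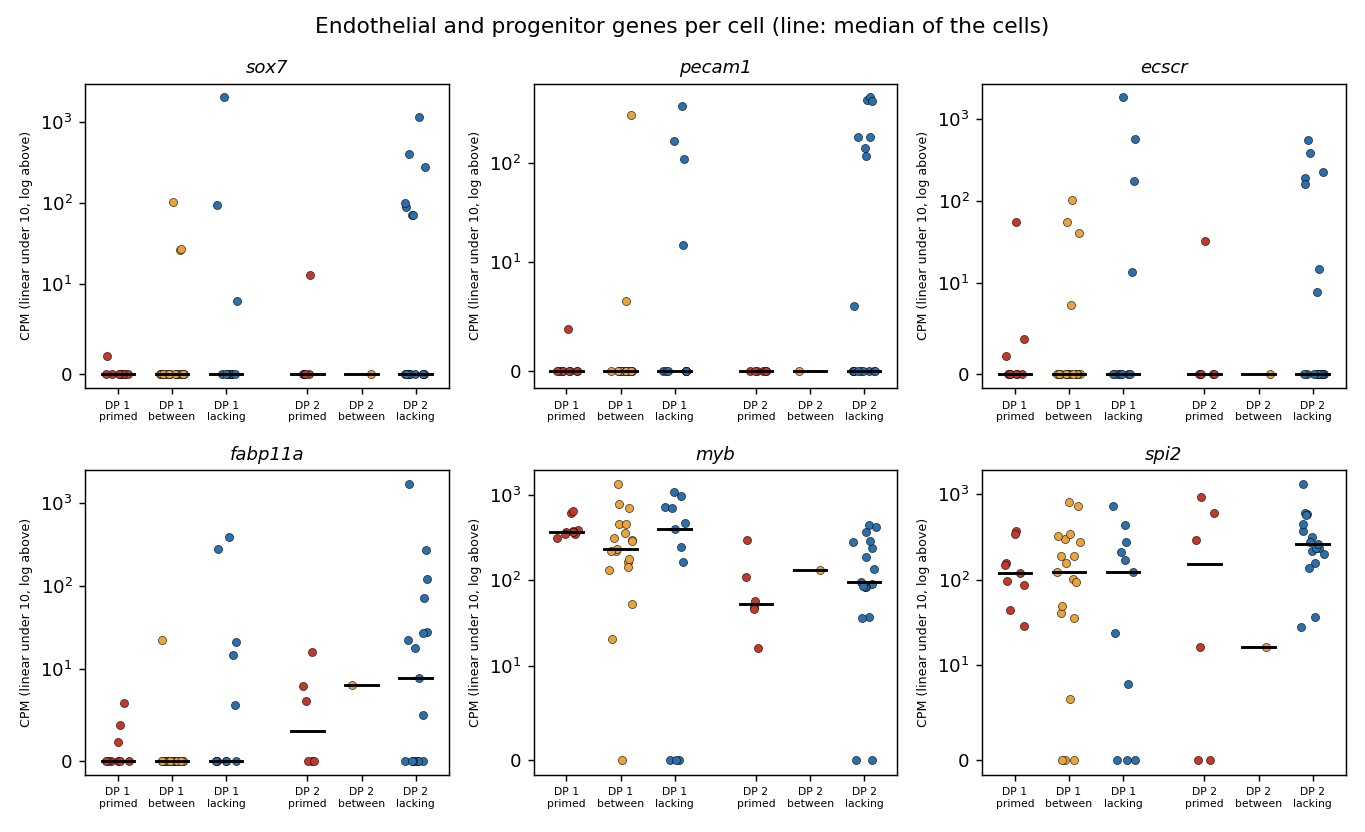
CPM of sox7, pecam1, ecscr, fabp11a, myb and spi2 in single primed, intermediate (between) and lacking cells of DP 1 and DP 2 (linear under 10 and log above), with the horizontal line at the median of the cells. Transcripts of sox7, pecam1 and ecscr are at or near 0 in most primed cells and reach 2002 CPM (sox7) in a subset of lacking cells, while myb and spi2 overlap between the sides.

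Among stem and progenitor regulators the sides overlapped, and several genes had opposite signs in DP 1 and DP 2. The gene myb, needed for definitive blood stem cells, had 395 and 103 CPM in primed cells, against 363 and 152 CPM in lacking cells (log2 -0.15 ± 0.39). All 15 primed cells held myb counts, and single primed cells of DP 1 spanned 310 to 645 CPM, inside the 0 to 1088 CPM of the lacking cells. The hemogenic regulator gene runx1 had 17 and 5 counts in primed cells, against 0 and 15 in lacking cells, too few to test. For lmo2 and gata2b the direction was opposite in DP 1 and DP 2, with gata2b at 38 and 0 counts in primed cells against 1 and 50 in lacking cells.

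Others lay lower in primed cells in both libraries without passing the test. The lymphoid and progenitor regulator gene ikzf1 had 115 and 67.3 CPM in primed cells, against 222 and 130 CPM in lacking cells (log2 -0.95 ± 0.39), and gfi1aa had 45 and 0 counts, against 43 and 14 (log2 -2.03 ± 0.82). The homeobox gene meis1b had 24.2 and 3.13 CPM, against 97.5 and 32.9 CPM in lacking cells. Of 14 tested genes of the hemogenic and stem/progenitor list, 11 had a negative log2 difference, the median was -0.84 (-0.62 in cells of 50000 counts or more), and meis1b was under an unadjusted p of 0.05. The ETS family had a median of -0.40 over 9 genes. Draculin-like zinc finger genes had a median of 1.28 over 5 genes, but DP 1 and DP 2 had the same sign for 2 of the 5.

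The genes named by rule as lower in primed cells included sox7 and ecscr. The fatty acid binding protein gene fabp11a had 1.53 and 4.69 CPM in primed cells, against 65.4 and 162 CPM in lacking cells (log2 -5.23 ± 0.63), and 1 lacking cell of DP 2 gave 87.3% of the counts there. The RNA-binding protein gene nanos1 had 3 and 2 counts in primed cells, against 168 and 86 in lacking cells (log2 -6.95 ± 0.95), and was found in 5 of 15 primed cells, against 18 of 28 lacking cells. The GTPase gene arl5c had 1.23 and 7.82 CPM, against 65.4 and 124 CPM in lacking cells. Like sox7, the genes fabp11a, nanos1 and arl5c entered the test through the lacking side alone, which fixed their sign. The splicing regulator gene mbnl2 was at -4.0 ± 0.62. The other 6 were rbm6, supt5h, snx6, ankrd28b, tubgcp6 and znf503, with log2 differences from -4.36 to -2.41.

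Stress-responsive genes had negative values without passing the reported test. All 15 tested immediate early genes had a negative log2 difference, with a median of -1.11 (-1.1 in DP 1 and -0.63 in DP 2) and opposite signs in the libraries for 4 of them, and fosab, egr1, egr2a, ier2a and atf3 were under an unadjusted p of 0.05. The AP-1 gene fosab had 1044 and 881 CPM in primed cells, against 2012 and 2142 CPM in lacking cells (log2 -1.11 ± 0.26), and the early growth response gene egr1 had 33.4 and 46.9 CPM, against 216 and 143 CPM (log2 -2.27 ± 0.51). All 5 tested heat shock genes were negative too, with a median of -1.75 (-3.59 in DP 1 and -0.91 in DP 2) and hsp70.1, hsp70l and hsp90aa1.2 under an unadjusted p of 0.05. The order of the median cells was the other way in DP 1, where the summed list had 254 CPM on the primed side, against 122 CPM on the lacking side. Single cells of DP 1 reached 479 CPM on the primed side and 5882 CPM on the lacking side. In DP 2 the median cells had 2589 and 3275 CPM. The chaperone gene hsp70l had 68.1 and 289 CPM, against 191 and 1563 CPM in lacking cells (log2 -2.00 ± 0.41). The hsp70 copies may share counts. These lists also respond to handling, and in DP 1 the lacking cells also held more mitochondrial transcripts, whose part in this result was not tested. In cells of 50000 counts or more the medians were -1.13 and -1.98.

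Cell division genes lay on both sides of 0. The median was -0.40 over 19 S phase genes (-0.17 in cells of 50000 counts or more) and 0.25 over 15 G2/M genes (-0.13 in cells of 50000 counts or more), with 0 members of either list under an unadjusted p of 0.05. The migration receptor gene cxcr4b had 1246 and 1458 CPM in primed cells, against 1515 and 285 CPM in lacking cells, in opposite directions in the libraries, and 1 lacking cell gave 85.7% of the DP 1 lacking counts. The oxysterol receptor gene gpr183a had 114 and 110 CPM, against 180 and 113 CPM in lacking cells.

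Markers of other cell types were present on both sides. The erythroid list summed to 540 and 449 CPM in primed cells, against 486 and 345 CPM in lacking cells, with a median log2 of 0.19 over 3 tested genes. The skeletal muscle list summed to 19.6 and 368 CPM in primed cells, against 28.4 and 291 CPM in lacking cells, with a median of 0.02 over 9. The keratin sums were lower on the primed side, with krt8 at 7.97 and 32.9 CPM against 28.4 and 211 CPM in lacking cells and krt18a.1 at 1 and 24 counts against 29 and 354, both under an unadjusted p of 0.05 and with a list median of -2.34 over 3 genes. The summed keratinocyte list reached 119 and 384 CPM in single primed cells, against 530 and 6271 CPM in lacking cells, but the order of the median cells was the other way in DP 2. The median cell of DP 2 had 48.5 CPM on the primed side, against 39.7 CPM on the lacking side. The lymphoid and neural lists had 1 tested gene each. Lysosome genes had a median of -0.12 over 11, with cd63 higher and lamp2 lower at an unadjusted p under 0.05. Of the 11, lamp2 entered the test through the lacking side alone and ctsc through the primed side alone, which fixed their signs. Inflammatory genes had a median of 0.11 over 7, high mobility group genes 0.06 over 8, chemokine receptor genes -0.36 over 4, mitochondrially encoded genes -0.29 over 13, and symbols beginning with rpl or rps 0.02 over 84. The signs of the erythroid, muscle, lysosome, inflammatory, high mobility group, chemokine receptor and ribosomal medians changed with the settings, and that of the mitochondrial median between the libraries. In the thrombocyte and mast cell list 2 genes were tested. The integrin activator gene fermt3b, also used by leukocytes, had 229 and 113 CPM in primed cells, against 43.2 and 16.5 CPM in lacking cells (log2 2.56). The other, gp1bb, had a log2 difference of -1.64, with opposite signs in DP 1 and DP 2.

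**Figure D5:**
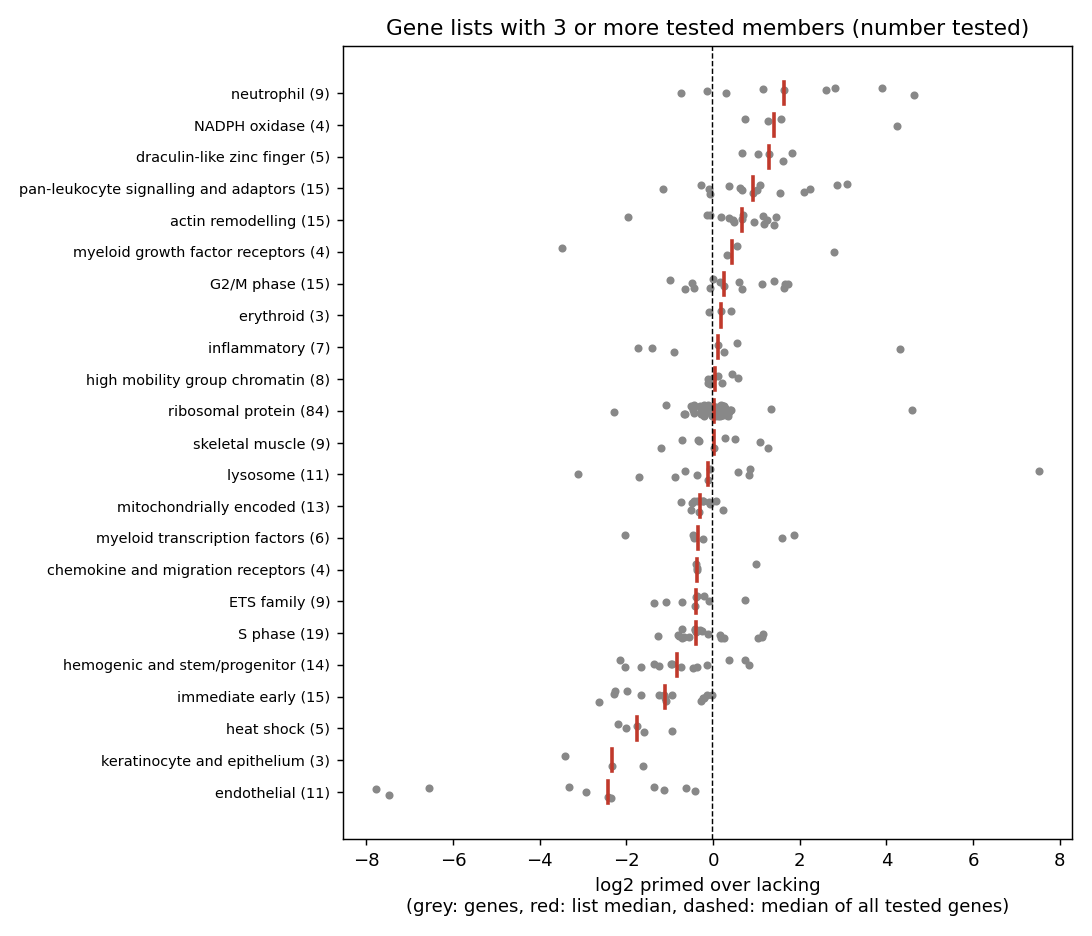
Log2 difference of primed over lacking cells (horizontal axis) for every tested gene of each list with 3 or more tested members, with list names and member numbers on the vertical axis. Red bars are list medians, from 1.64 (neutrophil) at the top to -2.42 (endothelial) at the bottom, against -0.03 for all tested genes (dashed).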

How the data were processed

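The deposited table holds raw counts per gene and cell, used as the authors gave them, and the library of each cell came from its column name. GRCz11, HISAT2 2.1.0 and Trimmomatic 0.36 are named, per the submitters' processing notes, over several assays and with no role given. How reads were counted, whether identical molecules were collapsed and whether strand was used is not stated there, so limits drawn from 0 counts cover counting error only. The cell filter removed 14 of 93 cells, no 2 cells had identical counts, and 23 cell numbers occur in both libraries as names only. No doublet caller was run on singly sorted cells.

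The members, gene lists and tests were chosen with earlier results of these data known. Counts were summed per library and side and tested with edgeR 4.0.16 (R 4.3.3; quasi-likelihood, TMM, filterByExpr, two-sided, library as block, Benjamini-Hochberg). The genes spi1b, cdh5 and npsn, used by the rule, were left out of the test. SE is the absolute log2 difference divided by the square root of F. DESeq2 1.42.0 and edgeR's legacy method were alternatives. In each direction 12 genes were to be named from called genes of 20 or more counts and the same direction in both libraries, largest first. With none called, the next by unadjusted p filled the places, beside a fixed set of myeloid, progenitor and migration genes. Of the genes higher in primed cells 11 are given, and the other is not reported here. Shares of cells after thinning use 20000 counts from each cell. The fitting script was tested on simulated counts.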

Additional observations from a re-analysis of the deposited data

How the results depend on the processing

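The count of called genes was 0 in the reported fit. It was 59 with DESeq2, which left 1449 genes without an adjusted p, and 58 with the legacy quasi-likelihood method. It was 0 in the other settings fitted, among them no replicate block, cells of 50000 counts or more, no npsn limit and no cdh5 limit. The library block pairs the sides by library, and without it 500 genes had an unadjusted p under 0.05, against 544 with it. That count was 352 with the legacy method and 232 with thinned cells, where 2317 genes were tested. Of the 24 genes named by rule, 0 changed direction in any setting. The rule asked for the same direction in both libraries, so leaving out a library could not reverse these genes. In the reported fit 4 of the higher genes entered through the primed side alone and 7 of the lower through the lacking side alone. Entry of this kind fixes the sign. The count of 0 is therefore partly set by how the genes were chosen.

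Among the fixed genes, cebpb was at 0.0539 with thinned cells, and gpr183a was at 0.59 with thinned cells, 0.0897 with spi1b at 100 CPM or more and 0.56 with no npsn limit. The value of laptm5 was -0.0152 without the cells highest in spi1b. For myb it was 0.0238 with no replicate block and 0.0595 when all cells under 50 CPM were the lacking side, where gata2b was at 0.32. With 1 library left out at a time, which leaves values with no test, laptm5 ran from -0.0446 to 0.84, cxcr4b from -0.24 to 2.30, myb from -0.60 to 0.17 and gata2b from -5.52 to 2.72.

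Of 23 list medians (log2), 11 kept their sign in the settings fitted and in each library alone. Over these settings the neutrophil median ran from 1.21 to 2.90, the NADPH oxidase median from 0.76 to 2.65, the pan-leukocyte median from 0.31 to 1.35 and the actin remodelling median from 0.20 to 1.16. The endothelial median ran from -5.45 to -1.89, the immediate early median from -1.28 to -0.77 and the heat shock median from -1.99 to -0.76. With 1 library left out the heat shock median ran from -3.59 to -0.91 and the immediate early median from -1.1 to -0.63, the stem and progenitor median from -1.51 to -0.45, the S phase median from -0.21 to -0.19, the NADPH oxidase median from 0.90 to 1.80, the actin median from 0.40 to 0.66, the neutrophil median from 1.39 to 2.29 and the keratinocyte median from -3.68 to -2.70. The other 12 medians, most of them near 0, changed sign somewhere. That of myeloid transcription factors was 0.0048 with thinned cells and ran from -1.27 to 0.0047 with 1 library left out. That of myeloid growth factor receptors was -0.0042 without the deepest cell of each side. The chemokine receptor median was 0.76 with DESeq2, 0.73 with the legacy method, 0.0079 without the deepest cells, 0.61 with all cells under 50 CPM as the lacking side and 0.64 with no npsn limit, and ran from -0.43 to 1.1 with 1 library left out. The lysosome median was 0.11 with DESeq2 and 0.13 with the legacy method. The G2/M median was -0.13 in cells of 50000 counts or more, and with 1 library left out it ran from -0.0486 to 0.36, the draculin-like median from -0.0118 to 2.67 and the mitochondrial median from -0.89 to 0.18.

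The erythroid median was -0.21 without the deepest cells, -0.0113 with spi1b at 100 CPM or more, -0.0178 with npsn under 50 CPM and -0.0018 with no npsn limit. The inflammatory median was -0.43 with no replicate block, -0.13 without the deepest cells, -0.44 with thinned cells, -0.97 with spi1b at 100 CPM or more, -0.0143 with all cells under 50 CPM as the lacking side, -0.16 with npsn under 50 CPM and -0.10 in cells of 50000 counts or more, and ran from -0.14 to 0.0696 with 1 library left out. In the same settings, apart from the block and the spi1b limit, the high mobility group median was -0.0278, -0.12, -0.0188, -0.13 and -0.0129, and it ran from -0.17 to 0.28 with 1 library left out. The skeletal muscle median was -1.53 with no replicate block, -0.15 without the deepest cells, -0.0492 with spi1b at 100 CPM or more, -0.26 with npsn under 50 CPM, -0.17 without cells holding mpx or mpeg1.1 and -0.155 without the cells highest in spi1b, and ran from -0.52 to 0.18 with 1 library left out. The ribosomal protein median was -0.0309 with no replicate block, -0.0049 with DESeq2, -0.0183 with spi1b at 100 CPM or more, -0.0459 with all cells under 50 CPM as the lacking side, -0.0213 with npsn under 50 CPM and -0.0607 in cells of 50000 counts or more, and ran from -0.0877 to 0.19 with 1 library left out.

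The cause was not tested for any of these changes. Leaving out cells with mpx, lyz or mpeg1.1 at 50 CPM or more was planned but left 0 cells of DP 1 on both sides and could not be fitted. Leaving out cells by mpx or mpeg1.1 alone, and leaving out the primed cell highest in spi1b of each library, were chosen after seeing the data. The sums rest on 15 primed and 28 lacking cells, and the depth of the lacking cells limits what a count of 0 can show.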

Other observations

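Intermediate cells, which entered no test, can be set beside the sides in DP 1, where there were 19 of them with 2659168 counts in all. The genes il6r, lcp1, lta4h, cebp1 and il1b, chosen after their values were seen, stood at 197, 30.1, 45.9, 60.6 and 27.8 CPM in intermediate cells. In primed cells they had 577, 84.6, 132, 187 and 164 CPM, and in lacking cells 72.8, 4.93, 1.23, 2.47 and 3.70 CPM, so the intermediate sums lay between the sides for all 5. The levels of cebpa (183 CPM), srgn (330 CPM) and nccrp1 (33.5 CPM) in intermediate cells were at or under those of the lacking cells (196, 333 and 49.3 CPM) while primed cells had 978, 847 and 217 CPM. These values have 1 sum per group and no replicate check.

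Among the 10 cells set aside for cdh5 counts, 1 cell of DP 1 held spi1b at 1002 CPM, which is 96.4% of the 224 spi1b counts of the cdh5-positive cells of that library. It had 4 cdh5 counts, lyz at 5615 CPM and npsn at 13.9 CPM. The other 5 cdh5-positive cells of DP 1 had spi1b at 18.7 CPM or less, and the 4 of DP 2 had 0 counts.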
